A study of Mus musculus and Rattus norvegicus with 35 samples.

Results

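Organic ion and drug transporters are the genes whose symbols start with Slco, Slc22a, Slc10a or Slc47a, and 49 of the 24601 genes of the deposited mouse table have such a symbol. They were chosen by symbol alone: 15 Slco, 25 Slc22a, 7 Slc10a and 2 Slc47a genes. The deposited circular RNA (circRNA) table holds 33 rows with one of these genes as host, from 11 hosts, among 28482 circRNAs. The 28 mouse libraries came from C57BL/6 mice with no transgene or treatment named in the labels. Brain, heart, liver, lung and testis each had 1 rRNA-depleted library at 14 weeks and 2 at 20 weeks, and 1 further 14-week brain library was selected for poly(A) RNA. Whole hippocampus had 2 libraries each at embryonic day 18 (E18) and postnatal days 1, 10 and 30 (P1, P10, P30). A hippocampal synaptosome preparation and its homogenate, and the CA1 neuropil and somata layers cut from 500 µm slices, had 1 library each at 4 weeks, and Sprague Dawley rats of that age gave 1 neuropil and 1 somata library.

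These transporters carry charged organic molecules across cell membranes. The Slco genes encode organic anion transporting polypeptides, which take up bile acids, thyroid hormones, steroid conjugates, prostaglandins and many drugs. The Slc22a genes encode carriers of organic anions, organic cations and carnitine. The Slc10a genes include the sodium-dependent bile acid transporters, and the Slc47a genes encode proton exchangers that extrude organic cations. The liver uses them to clear drugs and bile acids from blood. In the brain they sit mainly in capillary endothelium, choroid plexus and glia, where they control the entry of thyroid hormone and the exit of organic anions.

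Levels are in TPM, the authors' transcript abundances, which are scaled for transcript length and sum to the same total in every library, so that a level is a share of that library's RNA. In bulk samples fewer cells of a type and less RNA per cell cannot be told apart. Differences are given as log2(TPM + 1), which understates the change of low genes. The liver, heart, lung and testis libraries carried their own markers: hepatocyte markers summed to 63752 to 96885 TPM in liver, cardiomyocyte markers to 67046 to 74984 TPM in heart, alveolar markers to 75320 to 88160 TPM in lung and male germ cell markers to 29624 to 48887 TPM in testis. In brain, neuronal markers summed to 3169 to 3404 TPM. Between 11728 and 15605 genes reached 1 TPM in a mouse library. The amino acid carrier gene Slc7a5 is listed at 0 in every library, so a listed 0 may be a failed estimate. The labels do not say whether replicates came from separate animals, and the p-values measure the spread between libraries. Of the 15 tissue libraries, the 14-week heart and liver libraries list the summed Y-linked genes Ddx3y, Eif2s3y, Kdm5d and Uty at 0, and the 14-week lung library gives 0.103 TPM. The other rRNA-depleted mouse libraries give 45.0 to 275 TPM for that sum. The labels used here give no sex, so age and whatever else set these 3 libraries apart cannot be told apart.

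The promoters of 41 of the 49 transporters are in the RefSeq table of the mouse build GRCm38.p6, and 6 are shown because their genes carry the liver, testis and brain patterns described here. Each is the 250 bases before the annotated start site, 5′ to 3′ on the strand of the gene. Capitals in the first pair mark a 54-base run that both share. Slc22a28 and Slc22a30 are liver genes of the same organic anion transporter cluster, at chr19:8131983-8132232 and chr19:8405106-8405355, both on the minus strand.
Slc22a28: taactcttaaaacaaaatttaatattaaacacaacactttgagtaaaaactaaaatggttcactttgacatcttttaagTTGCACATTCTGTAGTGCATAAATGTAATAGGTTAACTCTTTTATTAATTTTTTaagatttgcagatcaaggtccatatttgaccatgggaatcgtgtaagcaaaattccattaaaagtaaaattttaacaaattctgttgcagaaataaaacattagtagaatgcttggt
Slc22a30: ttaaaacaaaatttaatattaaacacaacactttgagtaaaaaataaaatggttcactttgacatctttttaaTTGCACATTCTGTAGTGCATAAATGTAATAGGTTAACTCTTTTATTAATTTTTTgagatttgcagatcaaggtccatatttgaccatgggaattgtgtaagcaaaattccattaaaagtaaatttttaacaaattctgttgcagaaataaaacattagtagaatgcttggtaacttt
When aligned with a shift of 6 bases, these promoters were the same at 238 of 244 bases (97.5%). Their levels in the liver libraries differed, as given with the liver results. In the testis pair, Slco6c1 at chr1:97128304-97128553 (minus strand) and Slco6d1 at chr1:98420874-98421123 (plus strand), capitals mark a shared run of 18 bases. It starts 28 bases before the start site in Slco6c1 and 62 bases before it in Slco6d1.
Slco6c1: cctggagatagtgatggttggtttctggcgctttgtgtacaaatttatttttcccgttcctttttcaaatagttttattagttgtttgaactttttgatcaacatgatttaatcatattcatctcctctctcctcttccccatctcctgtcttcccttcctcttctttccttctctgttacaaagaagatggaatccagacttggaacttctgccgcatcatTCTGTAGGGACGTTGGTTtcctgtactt
Slco6d1: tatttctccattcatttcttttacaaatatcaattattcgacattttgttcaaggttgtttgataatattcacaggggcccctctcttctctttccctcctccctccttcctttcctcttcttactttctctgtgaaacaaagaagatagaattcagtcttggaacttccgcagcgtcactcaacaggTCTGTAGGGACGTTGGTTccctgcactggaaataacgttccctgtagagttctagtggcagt
In the last pair, Slco1b2 is at chr6:141629268-141629517 (plus strand) and Slco1a4 at chr6:141856221-141856470 (minus strand). Capitals mark the TATA letters TATAAA and the letters GTTAAT, part of the site of the liver factor HNF1, searched on both strands.
Slco1b2: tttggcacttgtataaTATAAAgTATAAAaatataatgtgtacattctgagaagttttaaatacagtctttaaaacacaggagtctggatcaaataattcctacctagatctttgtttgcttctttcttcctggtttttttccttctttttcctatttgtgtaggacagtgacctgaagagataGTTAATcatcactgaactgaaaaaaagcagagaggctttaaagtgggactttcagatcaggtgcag
Slco1a4: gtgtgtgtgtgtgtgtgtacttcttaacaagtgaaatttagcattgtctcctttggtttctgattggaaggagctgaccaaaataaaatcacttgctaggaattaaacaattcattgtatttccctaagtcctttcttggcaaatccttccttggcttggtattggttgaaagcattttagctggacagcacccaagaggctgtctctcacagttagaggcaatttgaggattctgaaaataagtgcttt
The Slco1b2 window held TATAAA 234 and 227 bases before the start site and GTTAAT 66 bases before it. The Slco1a4 window held neither in these 250 bases. GTTAAT was present in 6.43% of all 32851 promoter windows of this length and in windows of 5 of the 41 transporters, and TATAAA in 12.4% of windows and 6 of the 41. These matches describe letters and are not shown to be sites.

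Every transporter was above 0 in at least 1 tissue library. The highest tissue mean was under 1 TPM for 3 genes, 1 to 10 TPM for 10, 10 to 100 TPM for 23 and 100 TPM or more for 13. Summed over all 49, transporter RNA was 3185 ± 480 TPM in liver (SD, n = 3), 1095 ± 85.0 in testis, 647 ± 97.0 in brain, 586 ± 35.3 in lung and 269 ± 23.2 in heart. The liver libraries lay at 2648 to 3572 TPM, apart from the other tissues. The test needed at least 1 TPM in 3 of the 15 libraries, which 43 transporters met. The 6 that did not were Slc22a13, Slc22a19, Slc22a2, Slc22a20, Slc22a26 and Slc22a27. Of the 43, 11 reached 1 TPM in all 3 libraries of 1 tissue and in no other tissue library, and so met the filter only through the tissue where they were high. They were Slc10a4, Slc22a6 and Slc22a8 in brain, Slc22a28, Slc22a30, Slc22a7 and Slco1a1 in liver, and Slc22a16, Slco6b1, Slco6c1 and Slco6d1 in testis. Slco1c1 and Slco4a1 in brain, and Slc47a2, Slc22a22 and Slc22a29 in testis, also depended on 1 tissue. Each reached 1 TPM in all 3 libraries of that tissue and in fewer than 3 others. The counts of higher calls include all of these genes. Those counts, and the adjusted p of these genes, are a description.

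Of the 43 tested genes, 35 were higher in 1 tissue than in each of the other four (limma, adjusted p under 0.05), and 63.4% of all tested genes met the same rule. By tissue, 11 were highest in liver (5.01% of all genes), 10 in testis (20.9%), 7 in brain (17.6%), 6 in lung (15.1%) and 1 in heart (4.79%). By family, Slc22a genes were called in liver (5), testis (6) and brain (4), Slc10a genes in liver (3), lung (3) and brain (1), and Slco genes in liver, lung and testis (3 each), brain (2) and heart (1), and Slc47a2 was called in testis. Some adjoining genes were called in different tissues. In the RefSeq order of protein-coding genes of GRCm38.p6, 26 of 48 matched transporters lie in 9 runs that no other protein-coding gene interrupts. The longest holds Slc22a19, Slc22a26, Slc22a27, Slc22a28, Slc22a29, Slc22a30, Slc22a8 and Slc22a6. Of these, Slc22a28 and Slc22a30 were called in liver and Slc22a8 and Slc22a6 in brain.

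**Figure D1:**
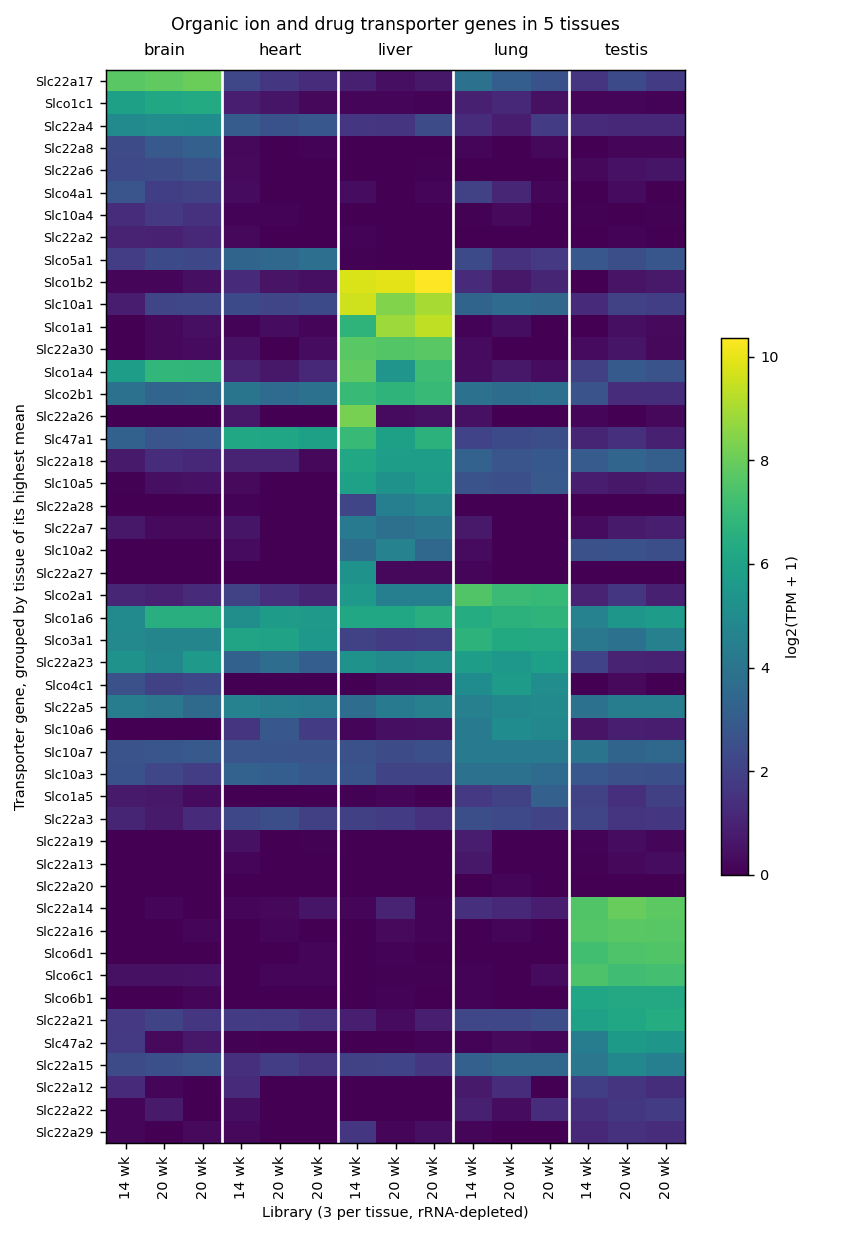
Each row is 1 of 48 transporter genes and each column 1 rRNA-depleted tissue library (1 at 14 weeks, 2 at 20 weeks), with colour giving log2(TPM + 1). Separate blocks of genes are bright in brain, liver and testis, Slco1a6 and Slc22a5 are present in all 5 tissues, and Slc22a26 and Slc22a27 are bright in the 14-week liver library and not in the 20-week ones.

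Liver had a small set of very abundant uptake carriers. Compared with the mean of the other four tissues, 15 of 43 transporters were higher in liver, against 10.9% of all tested genes, and 24 were lower, against 72.6% (limma). The median difference was -0.72 for the transporters and -1.02 for all genes. Scaling the libraries to equal medians shifts the all-gene median by 1.30 in liver, and the split becomes 25 higher and 9 lower. The shares of all genes under this scaling were not computed, and the shares above belong to the unscaled fit. In the values that follow, tissue libraries are listed as 20-week replicates 1 and 2 and then the 14-week library.

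Slco1b2, which takes up bile acids and drugs into hepatocytes, stood at 966, 1315 and 868 TPM in liver. Every other tissue library was at or below 1.39 TPM, so the groups did not overlap, and the difference was 9.42 (SE 0.21, adjusted p = 2.60e-13 by limma). Slco1a1, a carrier of steroid conjugates, had 460, 664 and 107 TPM (8.13, SE 0.37, adjusted p = 2.51e-10). The 14-week library was the low one for this gene. Slc10a1, the sodium-dependent bile acid uptake carrier of hepatocytes, had 339, 515 and 781 TPM (6.71, SE 0.30, adjusted p = 1.75e-10), and here the 14-week library was the high one. Slc22a30, of the organic anion transporter cluster shown above, was even across the 3 libraries at 194, 210 and 208 TPM (7.45, SE 0.14, adjusted p = 1.36e-13). Slco1a1 and Slc22a30 met the filter only through liver, so their adjusted p is a description. Slc10a5, an orphan member of the bile acid transporter family, had 38.5, 50.4 and 59.9 TPM (4.66). Lower but still highest in liver were Slc22a18, an imprinted gene, at 54.0, 53.2 and 71.2 TPM (3.93), and Slc22a7, an organic anion carrier, at 13.1, 15.9 and 17.6 TPM (3.67). Slco2b1, an anion carrier found in many tissues, was at 106, 129 and 127 TPM in liver (3.67) and at 1.52 to 15.2 TPM elsewhere. Slc10a2, best known as the bile acid carrier of the ileum, had 23.1, 10.4 and 12.2 TPM in liver (3.25) and 4.68 to 5.14 TPM in testis.

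The transporters that fell furthest in liver were carriers of other tissues. Slco3a1, which carries prostaglandins and thyroxine, was 2.51, 2.77 and 3.13 TPM in liver (-3.38, adjusted p = 2.51e-10 by limma). Slc22a17, a receptor for lipocalin, was at or below 0.894 TPM in the liver libraries (-3.01). Slco5a1, whose substrates are little known, was listed at 0 to 0.0308 TPM in liver (-2.54). The remaining named falls were Slc22a21 (-2.32), Slco6c1 (-1.96) and Slc22a14 (-1.90), all 3 highest in testis. All 13 genes of bile acid synthesis and its regulators, a list from textbook knowledge, were higher in liver, with a median difference of 6.15, among them Nr1i2, a xenobiotic sensor (5.23), and Baat, which conjugates bile acids (7.78). Of 11 tested efflux pumps that export what these carriers bring in, 6 were higher and 5 lower in liver. Abcb11, the bile salt export pump, differed by 7.94 and Abcc2, which exports conjugates into bile, by 8.36.

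The 3 liver libraries differed from each other for several carriers. Among transporters at 5 TPM or more in a liver library, some were over 2-fold higher in the 14-week library than in both 20-week libraries, and others over 2-fold lower. The share of all genes that did so was not computed, so the genes are given singly. Slc22a26, of the organic anion transporter cluster, was 297 TPM at 14 weeks and 0.235 and 0.381 TPM at 20 weeks. Its neighbour Slc22a27 was 39.1 TPM at 14 weeks and 0.166 and 0.181 TPM at 20 weeks. Both were near 0 outside that 1 library, which is why they missed the filter. Slco2a1, the prostaglandin uptake carrier, was 47.1 TPM at 14 weeks and 21.3 and 21.0 TPM at 20 weeks. In the opposite direction, Slc22a28 was 3.45 TPM at 14 weeks and 21.5 and 26.9 TPM at 20 weeks, and Slco1a1 was 107 TPM against 460 and 664 TPM. Slc22a28 was called in liver over all 3 libraries (3.81, adjusted p = 3.79e-07 by limma), a description only, since it met the filter only through liver. Slc22a19, also of the cluster, was listed at 0 in all 3. Genes of this cluster are close copies, and the sources used here do not say how the authors' counting split reads between them, so the division among them is uncertain.

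The same 14-week liver library lacked Y-linked RNA, as given above, and differed in liver genes known to differ between the sexes, which were picked after their values were seen. Cyp2d9 was 13.7 TPM at 14 weeks and 840 and 1099 TPM at 20 weeks. Mup20 was 70.8 TPM against 10067 and 10589 TPM, and Hsd3b5 13.3 TPM against 301 and 274 TPM. Cyp2b9 was 656 TPM and Sult3a1 569 TPM at 14 weeks, and both are listed at 0 at 20 weeks. The efflux pump Abcg2 was 41.5 TPM at 14 weeks and 119 and 149 TPM at 20 weeks. With 1 library at 14 weeks this split has no replicate, and the part of age or sex in it was not tested. Without the 14-week heart, liver and lung libraries, an alternative chosen after seeing the data, liver had 15 transporters higher and 23 lower.

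**Figure D2:**
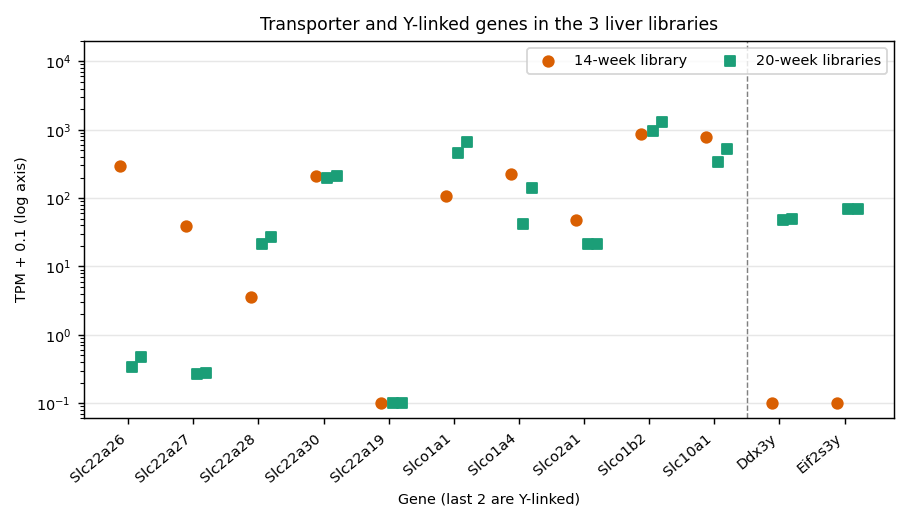
TPM + 0.1 on a log axis for 10 transporters and 2 Y-linked genes in the 14-week liver library (circles) and the 20-week liver libraries (squares). Slc22a26 and Slc22a27 are high in the 14-week library and near the floor in the 20-week libraries, Slc22a28 and Slco1a1 are lower there, Slc22a30 is level, and Ddx3y and Eif2s3y lie at the floor in the 14-week library.

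Slco1a4 takes up anions and drugs across brain capillaries and hepatocyte membranes. It had 114, 110 and 55.6 TPM in brain and 41.7, 141 and 225 TPM in liver. The ranges of brain and liver overlapped, and the difference between them was -0.30 (adjusted p = 0.613 by limma). Both were far above the other tissues: brain by 3.81 over the mean of the other four (SE 0.39, adjusted p = 7.48e-07) and liver by 4.19 (adjusted p = 2.31e-07). Without the 14-week library, liver differed by 3.68. Testis came next with 6.74, 5.31 and 2.93 TPM, heart had 0.611, 1.22 and 1.06 TPM, and lung 0.606, 0.257 and 0.252 TPM. In lung it was the transporter with the largest fall (-3.75), and in heart it fell by 3.10. Its testis difference of -1.14 (adjusted p = 0.0142) was lost without the 14-week testis library (adjusted p = 0.0946), with a pseudocount of 0.1 TPM (0.130) and in the 20-week libraries alone (0.0794).

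Slco1a6, a close relative of Slco1a4 and a gene little studied, was present everywhere, at 23.0 to 105 TPM in the 15 tissue libraries. Its differences were small: lung was higher by 0.84 and testis lower by 0.84 (adjusted p = 0.0207 and 0.0193 by limma). The Slco1a genes are close copies, so the level of any one of them depends on how shared reads were assigned. In the rat CA1 libraries Slco1a6 was 0 to 0.127 TPM.

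Testis had very high levels of several genes that were near 0 in the other tissues, among them the Slco6 genes and Slc22a16. Of 43 transporters, 16 were higher in testis, against 32.9% of all tested genes, and 23 lower, against 47.8% (limma), with a median of -0.56 for transporters and -0.41 for all genes. Slc22a16, a carnitine carrier of the male reproductive tract, had 206, 203 and 191 TPM in testis (7.58, adjusted p = 8.68e-16), and the other tissue libraries were at or below 0.197 TPM. The 3 Slco6 genes, which are known from the gonads, were all testis genes. Slco6d1 had 182, 185 and 151 TPM (7.41, adjusted p = 8.12e-16) and Slco6c1 had 144, 154 and 177 TPM (7.12, adjusted p = 1.12e-15). Slco6b1 had 76.4, 74.5 and 68.2 TPM (6.18, adjusted p = 9.90e-16). Slc22a14, a sperm protein needed for male fertility in mice, had 246, 216 and 189 TPM (7.27, adjusted p = 2.08e-13). Slc47a2, an organic cation exchanger, had 48.6, 43.2 and 19.8 TPM in testis (4.88, adjusted p = 6.68e-10). In this gene the 14-week library was the lowest of the 3. Slc22a16, the Slco6 genes and Slc47a2 met the filter only through testis, so their adjusted p is a description. Slc47a1, the neighbour and family member of Slc47a2, was low in testis, at 1.70, 0.868 and 1.10 TPM (-3.33). Slc22a21, a carnitine carrier that adjoins Slc22a5 and Slc22a4, had 72.0, 85.3 and 60.7 TPM (4.57, adjusted p = 8.80e-12). Slc22a15 was broader, with 27.5, 20.9 and 16.5 TPM in testis (2.11) and 1.72 to 9.85 TPM elsewhere. The other higher calls were Slc10a2 (1.53), Slc22a22 (1.29), Slc22a12 (1.22), Slc22a29 (1.07), Slco1a5 (1.07), Slco5a1 (0.81), Slc10a7 (0.55) and Slc22a18 (0.49). Slc22a23, an orphan carrier, had the largest fall, with 1.07, 0.926 and 3.25 TPM in testis (-3.49), followed by Slc47a1, Slco2b1 (-2.76), Slco1b2 (-2.58), Slco2a1 (-2.49) and Slc10a1 (-2.38). Of 11 tested efflux pumps, 1 was higher and 8 were lower in testis.

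Brain carriers included the thyroid hormone, lipocalin and organic anion systems. Of 43 transporters, 10 were higher in brain, against 45.4% of all tested genes, and 22 lower, against 28.0% (limma). The median was -0.51 for transporters and 0.34 for all genes, so brain showed fewer higher calls among transporters than among genes at large. With equal medians, which shift the all-gene value by -0.82 in brain, the split was 8 higher and 32 lower, with no share of all genes computed. Slc22a17 had 229, 261 and 208 TPM in brain (5.99, adjusted p = 8.20e-11) and at most 14.1 TPM elsewhere. Slco1c1, the thyroxine carrier of brain capillaries and astrocytes, had 71.1, 78.9 and 57.7 TPM (5.71, adjusted p = 9.07e-13) and at most 1.19 TPM elsewhere. Both sets of libraries were fully apart from the other tissues. Slco1c1 met the filter only through brain, so its adjusted p is a description. Slc22a4, which takes up the antioxidant ergothioneine, had 32.7, 32.1 and 28.8 TPM in brain (3.21, adjusted p = 8.88e-09). The organic anion exchangers Slc22a8 and Slc22a6, known from kidney and choroid plexus, were lower in level but were mostly brain RNA here. Slc22a8 had 6.40, 7.99 and 4.36 TPM (2.74) and Slc22a6 had 4.28, 4.98 and 3.84 TPM (2.28), while all other tissue libraries were at or below 0.499 TPM for both. The choroid plexus markers summed to 688 to 2614 TPM in the brain libraries. The same list summed to 4033 to 10946 TPM in liver and 531 to 626 TPM in lung, so the sum is not specific to choroid plexus. Counted singly, 8 of the 9 markers were higher and 1 lower in brain, 2 and 7 in liver, and 4 and 5 in lung (limma). The part of choroid plexus in these levels was not tested. Slco4a1 (1.87) and Slc10a4, a vesicle protein of cholinergic and monoaminergic neurons (1.45), were also highest in brain. Among the largest falls in brain were Slco1b2 (-2.79), Slco2a1 (-2.56), Slc10a1 (-2.40), Slc22a14 (-2.35) and Slc22a18 (-2.12), all carriers of liver, lung or testis. The thyroid hormone list had 6 of 8 tested genes higher and 1 lower in brain, with Dio2, which activates thyroxine, at 4.52 and Crym, which binds the hormone, at 5.51. Of 9 monoamine clearance genes, 5 were higher and 1 lower, among them Slc6a3 (3.29) and Slc29a4 (2.59).

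Lung carried prostaglandin and steroid sulfate carriers. Of 43 transporters, 13 were higher in lung, against 47.5% of all tested genes, and 21 lower, against 25.4% (limma), with a median of -0.29 for transporters and 0.42 for all genes. With equal medians, which shift the all-gene value by -0.83 in lung, the split was 8 higher and 29 lower, with no share of all genes computed. Slco2a1, which takes up prostaglandins for breakdown, had 131, 122 and 189 TPM in lung (5.02, adjusted p = 1.82e-09), above the 21.0 to 47.1 TPM of liver. Hpgd, the enzyme that breaks prostaglandins down, differed by 5.09 in lung. Of 14 prostaglandin genes, 11 were higher and 1 lower, among them the receptors Ptgir (2.06) and Ptger2 (2.26). Slco4c1, best known from kidney, had 52.4, 32.7 and 31.8 TPM in lung (4.65, adjusted p = 4.59e-11) and at most 5.00 TPM elsewhere. Slc10a6, a carrier of sulfated steroids, had 31.5, 27.3 and 17.7 TPM (3.90, adjusted p = 3.96e-09). Slco3a1 had 77.5, 75.8 and 104 TPM in lung (2.24) and 62.6, 45.5 and 64.8 TPM in heart (1.53). Slc22a23 had 44.9, 56.5 and 55.5 TPM in lung (1.97), with brain and liver libraries between 27.9 and 46.4 TPM. Slc10a7, a Golgi protein, was 18.9, 18.9 and 18.7 TPM in lung (1.42) and 4.20 to 14.8 TPM elsewhere. Slc10a3, an orphan, was 13.5, 11.4 and 13.7 TPM in lung (1.22), and Slco1a5 3.07, 8.09 and 2.28 TPM (1.70). Among the falls after Slco1a4 were Slco1a1 (-2.08), Slc22a30 (-2.02), Slc22a16 (-1.92) and Slco6d1 (-1.88), each far higher in liver or testis.

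Heart had the fewest transporter calls upward. Of 43, 5 were higher in heart, against 19.7% of all tested genes, and 31 lower, against 45.1% (limma), with a median of -1.07 for transporters and -0.38 for all genes. Slc47a1, which extrudes organic cations, had 69.5, 58.2 and 73.0 TPM in heart (2.85, adjusted p = 4.90e-08) and 58.0, 101 and 130 TPM in liver. These ranges overlapped (heart against liver, adjusted p = 0.185), and both lay above all other tissue libraries, which were at or below 8.35 TPM. Slco5a1 was the 1 transporter called highest in heart, with 10.4, 12.9 and 9.21 TPM (1.88, adjusted p = 5.91e-07), over 4.65 to 6.03 TPM in testis. Slc10a6 (0.62, adjusted p = 0.0244) and Slc22a3, an organic cation carrier that clears monoamines (0.51, adjusted p = 0.0204), were called from small differences. Without 20-week heart replicate 1, neither passed (0.272 and 0.125), and 3 transporters were called higher in heart. Slc22a3 was also lost without the 14-week heart library (0.0573). The largest falls in heart after Slco1a4 were Slc22a18 (-2.52), Slc10a5 (-2.27), Slco1b2 (-2.19), Slco2a1 (-2.07) and Slc22a14 (-2.03). Of 12 carnitine and fatty acid oxidation genes, 9 were higher and 2 lower in heart, with Cpt1b at 5.74 and Acadvl at 3.58. Slc22a5, which brings carnitine into cells, was 19.8, 18.3 and 23.1 TPM in heart and 10.9 to 30.2 TPM over all tissue libraries. Its heart difference of 0.13 did not pass (adjusted p = 0.600), and lung was its only tissue past the threshold (0.56, adjusted p = 0.0215).

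In the developing hippocampus the summed transporter level had means of 326 TPM at E18, 399 at P1, 526 at P10 and 650 at P30. Within this sum, Slc22a17 went from a mean of 96.9 TPM at E18 to 339 TPM at P30, and Slco1a4 from 2.14 to 89.1 TPM. The sum thus follows a few abundant genes and does not describe the transporters as a group. The filter of 1 TPM in 2 of 8 libraries was met by 24 transporters. From E18 to P30, 7 rose, against 29.5% of all tested genes, and 8 fell, against 26.8% (limma). The median difference was -0.16 for transporters and 0.01 for all genes, and equal medians shift the latter by -0.14. Over the 4 ages 19 of 24 differed (moderated F test), against 62.5% of all genes. Values that follow are replicates 1 and 2 at each age.

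Slco1a4 had the largest rise: 2.23 and 2.05 TPM at E18, 6.22 and 5.99 at P1, 30.6 and 35.6 at P10, and 85.6 and 92.6 at P30. The ages did not overlap, and P30 lay 4.84 above E18 on the log2 scale (SE 0.16, adjusted p = 8.87e-08 by limma). The summed endothelial markers stayed between 228 and 292 TPM over the 8 libraries, and of the 8 markers 2 rose and 2 fell. After dividing each library by that sum, an alternative chosen after seeing the data, the rise of Slco1a4 was 4.80. With a sum this level, the division could hardly change the difference. The part of endothelial cells in the rise was not tested. Slc22a17 rose from 97.6 and 96.1 TPM at E18 through 146 and 104 at P1 and 221 and 211 at P10 to 385 and 294 at P30 (1.79, adjusted p = 3.79e-05). Slco4c1 went from 0.218 and 0.727 TPM at E18 to 2.85 and 2.98 at P30 (1.43, adjusted p = 3.86e-04). Slco2b1 went from 5.26 and 6.26 TPM to 13.3 and 10.6 (0.93, adjusted p = 0.00188), and Slco3a1 from 11.1 and 14.1 TPM to 20.1 and 21.1 (0.68, adjusted p = 0.0126). Both were low in the E18 and high in the P30 libraries without overlap. Slc22a4 went from 3.59 and 5.52 TPM to 8.85 and 7.85 (0.77, adjusted p = 0.0145), a call lost without E18 replicate 1 (0.114) or P30 replicate 1 (0.0835). Slc47a1 went from 0.322 and 0.381 TPM to 1.40 and 1.06 (0.72, adjusted p = 0.0167), a call lost without E18 replicate 1 (0.0743), E18 replicate 2 (0.0553) or P30 replicate 1 (0.108). Without E18 replicate 1, 4 transporters were called higher at P30.

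Slco5a1 had the largest fall: 21.4 and 24.7 TPM at E18, 12.9 and 19.3 at P1, 4.70 and 4.17 at P10, and 2.03 and 1.66 at P30 (-3.08, adjusted p = 3.42e-06 by limma). Each age lay below the one before it. Slco2a1 fell from 3.04 and 3.26 TPM to 1.11 and 1.20 (-0.94, adjusted p = 0.00268), and Slc22a5 from 18.0 and 16.6 TPM to 10.8 and 8.43 (-0.79, adjusted p = 0.00409). Meningeal fibroblast markers moved the same way, 6 of 8 lower and 1 higher at P30, and their part in these falls was not tested. Slc22a6 was 3.79 and 7.11 TPM at E18, 7.00 and 6.25 at P1, 2.09 and 1.74 at P10 and 1.95 and 2.46 at P30 (-0.96, adjusted p = 0.00997). The fall of Slc22a6 was lost without P30 replicate 1 (0.0666) or E18 replicate 2 (0.0808). Slc10a7 fell by 0.70 (adjusted p = 0.0125) and was lost without E18 replicate 2 (0.0542) or P30 replicate 2 (0.0866). Slc10a4 fell by 0.70 (adjusted p = 0.0141) and was lost without E18 replicate 1 (0.0668) or P30 replicate 1 (0.0893). Slc22a2, an organic cation carrier, fell by 0.63 and Slc10a3 by 0.54 (adjusted p = 0.0344 and 0.0321). Leaving out P30 replicate 1, P30 replicate 2 or E18 replicate 2 gave 5 transporters lower at P30.

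Slco1c1, the thyroxine carrier, was highest at P10. It was 77.3 and 72.1 TPM at E18, 83.6 and 118 at P1, 149 and 128 at P10 and 74.6 and 64.1 at P30. P30 and E18 differed by -0.11 (adjusted p = 0.635), while the 4 ages differed in the F test (adjusted p = 0.00406, limma), with P10 above the other ages. Slc22a8 lay between 4.22 and 6.36 TPM at all ages. The choroid plexus markers varied between replicates of 1 age, with sums of 26.6 and 3565 TPM at P10, 176 and 46.0 at E18, 294 and 29.8 at P1 and 1351 and 357 at P30. Slc22a8 was 6.36 and 6.13 TPM in the P10 replicates, and the part of choroid plexus in its level was not tested. Slc22a23 (0.43, adjusted p = 0.0699), Slco1a6 (0.57, adjusted p = 0.240) and Slc22a15 (-0.33, adjusted p = 0.216) did not pass between E18 and P30. Astrocyte (7 of 7), microglia (6 of 6), neuron (5 of 5) and oligodendrocyte (6 of 6) markers all rose, so the cell make-up moved with age as well, and its part in the transporter differences was not tested. Of the thyroid hormone list, 4 of 8 rose and 1 fell, led by Klf9 (4.16) and Thrb (3.20). Of 8 tested efflux pumps 4 rose and 1 fell, with Abcb4 at 1.78 and the blood-brain barrier pump Abcb1a at 1.26.

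**Figure D3:**
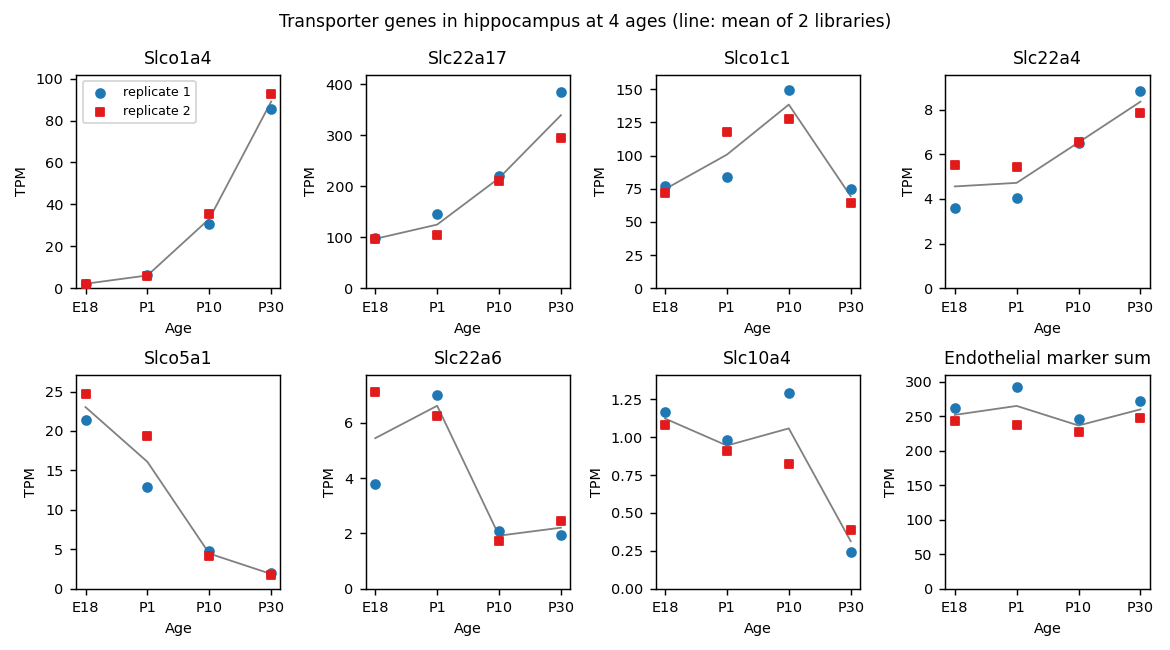
TPM of 7 transporters and the summed endothelial markers in whole hippocampus at E18, P1, P10 and P30, with 1 point per library and a line through the mean of 2. Slco1a4 and Slc22a17 climb, Slco5a1 falls, Slco1c1 is highest at P10, and the endothelial sum stays between 228 and 292 TPM.

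Compartments had 1 library each, so no test was possible and a gene was counted when TPM + 1 differed at least 2-fold. In the synaptosome preparation, a fraction meant to hold pinched-off nerve endings, 0 of 19 transporters at 1 TPM or more were that much higher than in the homogenate, against 5.83% of all genes, and 2 were lower, against 14.0%. Slco1a4 was 9.57 TPM in synaptosomes and 88.6 TPM in the homogenate (-3.08). Slc22a8 was 1.53 and 4.66 TPM (-1.16), and Slc22a6, the next lowest, 1.08 and 2.25 TPM. The endothelial markers were also lower, 64.3 against 226 TPM in sum with 6 of 8 at least 2-fold lower, and choroid plexus markers were 343 against 702 TPM in sum. Neuronal markers were lower too, 1996 against 4258 TPM in sum with 2 of 5 at least 2-fold lower, while astrocyte markers were 13628 against 2758 TPM and microglia markers 851 against 233 TPM. The make-up of this library thus differed from the homogenate in several cell types, and its part in the transporter levels was not tested. The highest ratios were those of Slco1a6, at 43.3 and 29.9 TPM, Slc22a15 and Slc47a1, all under 2-fold. Slc22a17 was nearly level at 360 and 369 TPM.

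In mouse CA1, 4 of 18 transporters were at least 2-fold higher in neuropil, the layer of processes, than in somata, against 8.22% of all genes, and none was lower by that much, against 0.970%. Slc22a8 was 7.21 TPM in neuropil and 1.89 TPM in somata, and Slc22a6 1.60 and 0.180 TPM. Slco1a4 was 196 and 74.9 TPM, and Slco1c1 139 and 58.7 TPM. Endothelial markers were 471 and 170 TPM in sum, with 8 of 8 at least 2-fold higher in neuropil, as were 7 of 7 astrocyte, 5 of 5 pericyte, 7 of 8 meningeal fibroblast and 5 of 6 microglia markers. Of 3 choroid plexus markers at 1 TPM or more, 2 were at least 2-fold higher in neuropil, with sums of 11.3 and 11.9 TPM. Neuronal markers were 2445 and 2828 TPM in sum, with 0 of 5 at least 2-fold apart. Oligodendrocyte markers were 4709 and 2902 TPM in sum, with 0 of 6 at least 2-fold apart. The part of these cell types in the transporter ratios was not tested. The lowest ratios were those of Slc22a17 (128 and 162 TPM), Slco1a6 and Slc22a21. Rat CA1 gave the same order of layers for Slco1a4, at 105 TPM in neuropil and 46.6 TPM in somata. In rat, 7 of 20 transporters were at least 2-fold higher in neuropil, against 8.35% of all genes, and none lower, against 1.47%. The highest rat ratios were those of Slc22a6 (3.51 and 0.276 TPM), Slc10a7 (7.04 and 1.77 TPM) and Slc10a6 (5.87 and 2.08 TPM). The lowest were those of Slco4c1 (3.59 and 7.52 TPM), Slc22a17 (471 and 679 TPM) and Slc10a5. Rat endothelial markers were 483 and 213 TPM in sum, with 6 of 7 at least 2-fold higher in neuropil. So were 5 of 7 astrocyte, 5 of 6 microglia, 3 of 6 pericyte and 6 of 8 meningeal fibroblast markers. The fibroblast marker Dcn was over 2-fold lower (51.1 and 120 TPM), and the sums of that list were 160 and 144 TPM. Of 4 choroid plexus markers at 1 TPM or more, 1 was at least 2-fold higher, with sums of 12.6 and 6.93 TPM. Rat neuronal markers were 2725 and 4022 TPM in sum and oligodendrocyte markers 9323 and 5102 TPM, with 0 of 6 at least 2-fold apart in each list. The part of these cell types in rat was not tested. Median log2 ratios of transporters and of all genes were -0.14 and -0.29 for synaptosomes, 0.34 and 0.00 for mouse neuropil, and 0.65 and 0.09 for rat neuropil.

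**Figure D4:**
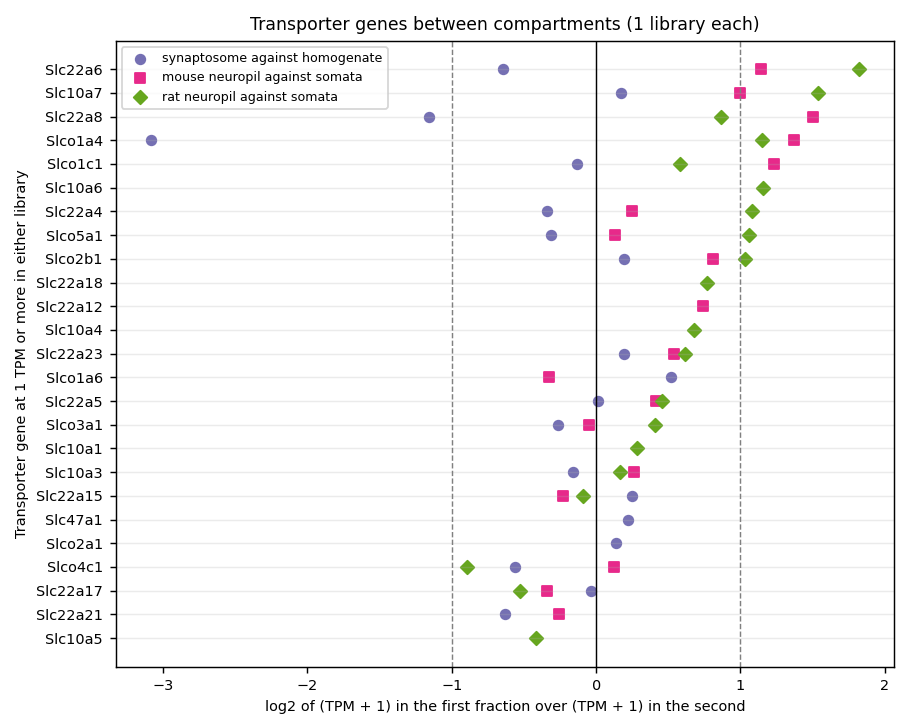
Log2 ratio of TPM + 1 for each transporter at 1 TPM or more, in synaptosome against homogenate (circles) and in neuropil against somata of mouse (squares) and rat (diamonds), with 1 library per fraction and dashed lines at 2-fold. Slco1a4 lies far left in synaptosomes and beyond 2-fold on the right in both neuropil comparisons, and Slc22a17 lies left of 0 in all 3.

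CircRNAs are closed loops of RNA that are detected by reads across a back-splice junction, where the end of an exon is joined to the start of an exon before it. The deposited values are back-splice reads scaled to library size (RPM), from which whole reads were recovered. Each rRNA-depleted mouse library held 1231 to 43523 such reads, the liver libraries 1231 to 2120 and the testis libraries 5606, 6053 and 23286 (14 weeks). Coordinates are of the build mm9. The 33 circRNAs of transporter hosts had few reads, so most differences were not detectable at this depth, and a count of 0 reads allows up to 3. Slc10a7 had the most, 104 reads over 9 circRNAs, of which 42 came from testis, 21 from the hippocampal ages, 11 from liver, 7 from brain and 3 from lung. Slco6d1 had 30 reads over 6 circRNAs, all in testis, and Slco6b1 had 9 reads, all in testis. Slco3a1 had 27 reads over 3 circRNAs, 16 of them from the hippocampal ages. Slco1b2 had 16 reads, 15 of them from liver. Slc22a15 had 16 reads, Slc22a23 11, Slco5a1 4 and Slc22a16, Slc22a4 and Slco4c1 2 each.

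In tissues 14 of these circRNAs were above 0 in at least 3 libraries and were tested on log2(RPM + the value of 1 read). Liver had 3 higher calls, against 0.447% of all tested circRNAs, and all 3 were hosted by Slco1b2 (limma). None was called lower in liver, against 6.97%. These 3 had reads in the liver libraries and no other tissue library, so they met the filter only through liver. The adjusted p given for each comes from the fit with no filter on detection. That fit still needed a read in at least 1 tissue library, which these had through liver alone, so their adjusted p is a description. The circRNA at chr6:141597010-141606127 had 2, 3 and 3 reads in the liver libraries (1.60, adjusted p = 3.74e-04). Its relative at chr6:141600964-141606127, which ends at the same base, had 1 read in each (0.83) and did not pass in that fit (adjusted p = 0.0633) or by edgeR (0.0752). The third, at chr6:141612099-141620834, had 2, 1 and 1 reads (1.01, adjusted p = 0.0271). No Slco1b2 read was seen in the other tissues, and 1 was seen at E18.

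Testis had 4 higher calls, against 13.0% of all tested circRNAs, and no lower call, against 5.49% (limma). Of these, 3 were hosted by Slco6d1 and met the filter only through testis. Their adjusted p again comes from the fit with no filter, which they entered through testis alone, so it is a description. The Slco6d1 circRNA at chr1:100319666-100343399 had 2, 2 and 5 reads in testis (1.71, adjusted p = 2.21e-05). Those at chr1:100328810-100363379, with 1, 1 and 6 reads (1.39, adjusted p = 9.22e-04), and at chr1:100324935-100363379, with 1, 1 and 2 reads (1.04, adjusted p = 0.00187), share an end. The 14-week testis library, the deepest of the 3, gave most of the reads. The Slco6d1 circRNAs at chr1:100319666-100396473 and chr1:100328810-100377363, had 4 and 3 reads, and Slco6b1 had 4 reads at chr1:98838452-98861970 and 3 at chr1:98826269-98861970, all in testis. The last testis call was Slc10a7 at chr8:81039485-81055057, with 3, 2 and 7 reads in testis (1.64, adjusted p = 0.00664), which was lost without the 14-week testis library (0.0769). It was not restricted to testis, with 31 reads over 15 libraries.

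The other Slc10a7 circRNAs with at least 3 reads were those at chr8:81039485-81102656 (20 reads), chr8:81049061-81055057 (16), chr8:81039485-81230847 (14, of which 10 in testis), chr8:81039485-81113148 (10) and chr8:81039485-81138709 (7, all in testis). All but the second of them start at the same base. In brain, 1 circRNA was called higher, against 47.7% of all circRNAs, and 3 lower, against 2.82% (limma). The higher one was Slco3a1 at chr7:81649063-81649528, from 2 brain reads (0.73, adjusted p = 0.0174, with 0.0517 without the filter and 0.161 by edgeR). The 3 lower ones, from Slco1b2 and Slco6d1, had 0 reads in brain and were lost without the filter, and edgeR called none of the 4, with 0 at an unadjusted p under 0.05. In heart limma called none of the 14, against 0.840% higher and 3.20% lower of all circRNAs, and in lung none, against 1.11% and 3.29%. In each of these tissues 5 of the 14 had an unadjusted p under 0.05, and edgeR called none in either (0 in heart and 1 in lung at an unadjusted p under 0.05). The same Slco3a1 circRNA had 6 reads at E18, 9 at P1, 1 at P10 and 0 at P30, but the fall from E18 to P30 did not pass (adjusted p = 0.214), while its host gene rose over these ages. Of 7 tested in hippocampus 1 was called higher at P30, against 6.27% of all circRNAs, and none lower, against 1.44%. The call was Slc10a7 at chr8:81039485-81102656, with 0 reads at E18 and 3 at P30 (1.32, adjusted p = 0.0421, with 0.106 without the filter and 0.582 by edgeR). At an unadjusted p under 0.05, limma gave 3 circRNAs and edgeR 1. Leaving out each library in turn, 6 of 8 fits no longer called any circRNA of these hosts. The remaining circRNAs with at least 3 reads were Slc22a15 at chr3:101701033-101701992 (11 reads, 4 of them at E18) and chr3:101679570-101719440 (3), Slc22a23 at chr13:34390866-34397130 (11, over tissues and hippocampus) and Slco3a1 at chr7:81463345-81472910 (5).

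**Figure D5:**
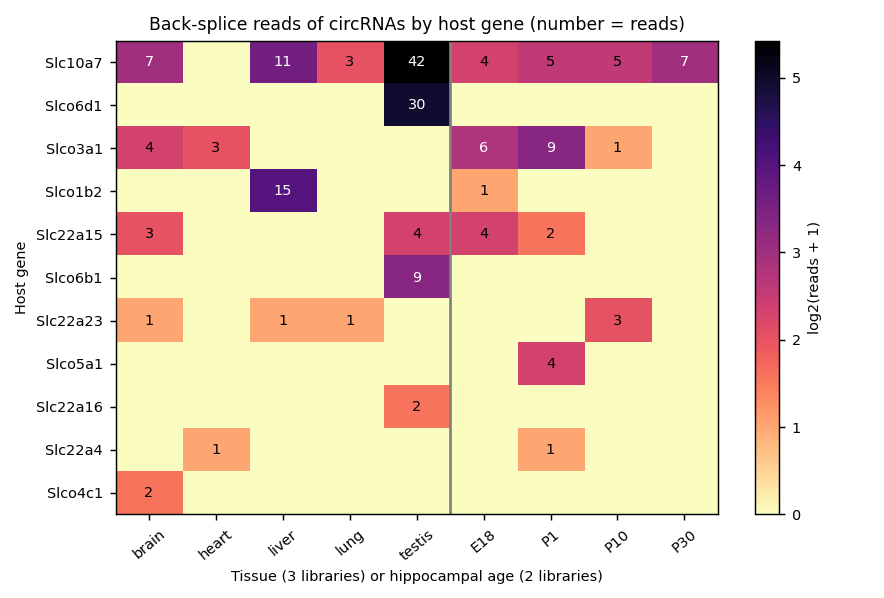
Back-splice reads of circRNAs by host gene, summed over the 3 libraries of each tissue and the 2 libraries of each hippocampal age, with colour giving log2(reads + 1) and the number of reads printed. Slc10a7 has reads in most groups with 42 in testis, Slco6d1 has all 30 in testis, and Slco1b2 has 15 in liver.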

How the data were processed

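RNA was extracted with TRIZOL and sequenced on Illumina instruments, per the labels' protocols, from rRNA-depleted libraries except 1 oligo(dT)-selected brain library, which entered no fit. Tools listed in the submitters' processing notes are Cufflinks 2.2.1, TopHat2 2.0.6 and CASAVA 1.8.2, and the builds listed are mm9 (mouse) and rn5 (rat). The gene tables hold TPM computed and deposited by the authors. CircRNA values are RPM as deposited by the authors, and the caller and the denominator are not given in the sources used here. The deposited circRNA lists also give a score per candidate, which was not used. All RPM values were whole multiples of 1 read in their library (100% within a tolerance of 0.1), and reads were recovered by division. Depth behind the TPM is unknown.

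Genes at 1 TPM or more in at least 3 of 15 tissue libraries or 2 of 8 hippocampal libraries were tested with limma 3.58.1 in R 4.3.3 on log2(TPM + 1), using eBayes with a trend. Tests were two-sided at a threshold of 0.05, after Benjamini-Hochberg adjustment over all genes tested. Each tissue was compared with the mean of the other four and, in 10 pairs, with each of them. P30 was compared with E18, and an F test covered the 4 ages. CircRNAs were tested the same way with a pseudocount of 1.18 RPM (tissues) or 0.578 RPM (hippocampus), since the table holds RPM and not counts, and edgeR 4.0.16 on recovered reads was an alternative. For each 20-week tissue and hippocampal age, replicate 1 minus replicate 2 was taken per gene on log2(TPM + 1). These differences were then correlated between 2 tissues or 2 ages. Replicate numbers were taken to pair libraries only if every such correlation was above 0.1. This was not so (4 of 6 pairs of ages and 2 of 10 pairs of tissues were), and the block was an alternative in these libraries.

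Named genes are Slco1a4, the 6 largest differences in each direction per contrast, members at 5 TPM or more, the 3 highest and 3 lowest ratios per compartment pair, circRNAs of at least 3 reads, and up to 2 genes of each pathway list, and other names are said to be chosen later or only counted. The transporters and lists were chosen with earlier results of these data known. Alternatives were the pseudocount, the filter, scaling to equal medians, eBayes without trend, age as a covariate, 20-week libraries alone, a replicate block, and leaving out each library. The values of 1 transporter are not reported here, although it is included in the counts and sums.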

Additional observations from a re-analysis of the deposited data

Results flagged for a closer look

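Among transporters at 1 TPM or more in both species, the neuropil to somata ratio had opposite signs in mouse and rat for Slco3a1 and Slco4c1. The share of all genes that changed sign was not computed. Slco3a1 differed by -0.0501 in mouse, which is nearly level, and by 0.41 in rat on the log2(TPM + 1) scale. Slco4c1 differed by 0.12 in mouse and -0.89 in rat. With 1 library per layer and species these differences were not tested. In the poly(A)-selected 14-week brain library, which entered no comparison, Slc22a17 was 668 TPM, 2.56 times the highest rRNA-depleted brain library (208 to 261 TPM).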

How the results depend on the processing

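No named difference reversed under any alternative run. Of 1797 values for 85 named differences, 1741 kept their direction and side of the threshold and 56 lost the call, over 15 differences. A filter of 5 TPM gave 6 transporters higher in brain, 4 lower at P30, 10 differing among the ages and 1 apart in synaptosomes, with fewer genes tested. Equal medians gave 25 higher and 9 lower in liver and 8 higher in lung, with no share of all genes computed beside them. A pseudocount of 0.1 TPM gave 11 transporters apart in rat neuropil. Beyond the fewer genes tested, the cause was not tested. The circRNA count at P30 was 0 by limma with no filter on detection, by limma with a replicate block and by edgeR, where 3, 3 and 1 had an unadjusted p under 0.05.

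Leaving out each library in turn gave these ranges of transporters higher and lower: brain 7 to 10 and 18 to 24, heart 3 to 6 and 26 to 30, liver 11 to 15 and 20 to 24, lung 12 to 14 and 16 to 20, testis 11 to 16 and 18 to 23, and P30 4 to 8 and 5 to 8. Those highest in 1 tissue ranged from 30 to 35 and those differing among ages from 13 to 19. CircRNA calls in tissues ranged from 4 (without the 14-week testis library) to 9, with 5 without any 1 of the liver libraries, and at P30 from 0 to 1.

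The same-number pairing check correlated the replicate differences of 1 group with those of another. It gave 0.023 to 0.112 between 20-week tissues (2 of 10 pairs over 0.1) and 0.079 to 0.349 between hippocampal ages (4 of 6). In tissues the replicate block was fitted to the 20-week libraries alone, with the filter lowered to 2 libraries. The block and the smaller set of libraries cannot be told apart in these counts. Higher and lower counts were then 11 and 26 in brain, 6 and 33 in heart and 16 and 22 in liver. Lung gave 13 and 22 and testis 16 and 20, with 36 highest in 1 tissue and 7 circRNAs called. With the block in all 8 hippocampal libraries the counts were 7 and 8 at P30, with 18 differing among ages. Groups of 2 or 3 libraries and few circRNA reads limit what could be detected.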

Other observations

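In the poly(A)-selected brain library, Slco1a4 was 32.7 TPM against 55.6 to 114 TPM in the rRNA-depleted brain libraries, and Slco1a6 was 12.7 TPM against 29.7 to 92.5 TPM. Slc22a8 was 12.6 TPM against 4.36 to 7.99 TPM, and Slco1c1 46.1 TPM against 57.7 to 78.9 TPM. With 1 such library these are values without a test.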
